A study of Mus musculus with 9 samples.

Results

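The expression changes described here separate the colonic mucosa of mice that ate a high calcium diet and stayed free of tumors from that of mice given the same carcinogen on a diet with less calcium. The samples were chosen by their titles, which gave 3 arrays of the high calcium group without tumors and 3 arrays of the DMH group, 6 of the 9 samples of the series. All measured genes were compared between them. The 3 remaining samples, from high calcium mice that carried tumors, served to estimate the spread and stand beside some results.

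The mice were ICR, an outbred stock, and in both groups they had been injected under the skin with 1,2-dimethylhydrazine (DMH) at 20 mg/kg each week over 20 weeks, so no group was free of the carcinogen. The diet held 3% calcium in the group without tumors and 1.24% in the group called DMH. The tissue was labelled as normal mucosa, and the labels gave the DMH mice's tumor status as "control", which does not say whether they had tumors. The group without tumors was therefore defined by its outcome as well as by its diet, and the effects of these cannot be told apart here. Nothing in the labels ties arrays to individual mice. The p-values therefore reflect only how much these arrays varied, and that spread may be technical.

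DMH is activated in the body to an alkylating agent that damages DNA, and repeated doses produce tumors of the distal colon in rodents. The colonic epithelium renews itself from stem cells at the base of the crypts, where Wnt signals keep cells dividing, and cells stop dividing and turn into absorptive, goblet or hormone-secreting cells as they move up. Overactive Wnt signalling is the usual first step of colorectal tumors. Calcium in the gut binds bile acids and fatty acids, acts on epithelial cells through the calcium-sensing receptor and lowers the body's need for the vitamin D driven uptake of calcium.

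A level is given as the scaled log2 signal, in which 0 is the array's 75th percentile and 1 unit is a doubling, and per-array values follow the order of replicates 1, 2 and 3, with the group without tumors first where they are set against DMH. A difference is the mean without tumors minus the mean in DMH, in log2 units, with its standard error (SE, n = 3 arrays per group). Adjusted p-values come from limma with Benjamini-Hochberg adjustment over all 21083 features, and a gene is said to rise or fall where this p was under 0.05. On each of the 6 arrays 63.2 to 73.7% of 41174 probes were well above background, and no spot was saturated. The 6 epithelial markers Vil1, Cdx2, Epcam, Krt20, Slc26a3 and Car1 were well above background on all 6 arrays, which fits the tissue label.

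The slide on which an array lay has to be read with every result. The 3 arrays without tumors shared slide 1 with DMH replicate 1, and DMH replicates 2 and 3 lay on slide 2 with replicates 1 and 2 of the group with tumors. Pearson's r across features (genes do not count as replicates) was 0.994 to 0.997 between arrays without tumors, with 119 to 331 features at least 2-fold apart. The DMH array on the same slide correlated with them at 0.98 to 0.983 (1108 to 1331 features at least 2-fold apart), and the DMH arrays on slide 2 at 0.962 to 0.97 (2419 to 2895). DMH replicate 1 differed from the other DMH arrays by at least 2-fold at 1169 to 1181 features, against 450 between replicates 2 and 3. Every difference was therefore fitted again, with a term for the slide (the slide as a block), which amounts to setting the 3 arrays without tumors against DMH replicate 1 on their shared slide. This value is called the within-slide difference, and it rests on a single DMH array.

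Of 21083 features 7507 passed (35.6%), 3891 higher without tumors (18.5%) and 3616 lower (17.2%). A change of at least 2-fold was called for 1149 (5.45%), 539 higher (2.56%) and 610 lower (2.89%). With the slide as a block 5775 passed (27.4%), and 4742 passed both fits with the same sign (22.5%), 2398 higher (11.4%) and 2344 lower (11.1%). Of the changes of at least 2-fold 85.4% also passed within the slide, and no feature passed both fits with opposite signs. Changes that passed both fits and were at least 2-fold in both numbered 354 higher (1.68%) and 426 lower (2.02%). At 12233 features (58%) the 3 arrays of the groups did not overlap, and every mention below of groups without overlap stands against this share. The median difference of all features was 0.07 and within the slide 0.02, against which small changes should be read. Counts of list members below stand against these shares of all features, 18.5% higher and 17.2% lower, or 11.4% and 11.1% in both fits. Rises made up 51.8% of all calls and 46.9% of those of at least 2-fold. On the scale of the authors' deposited table, where the median of all features was -0.14, they made up 29.3% and 21.4%. Under quantile normalization these shares were 44.2% and 32.4%, and under normexp 50.9% and 36.4%.

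**Figure D1:**
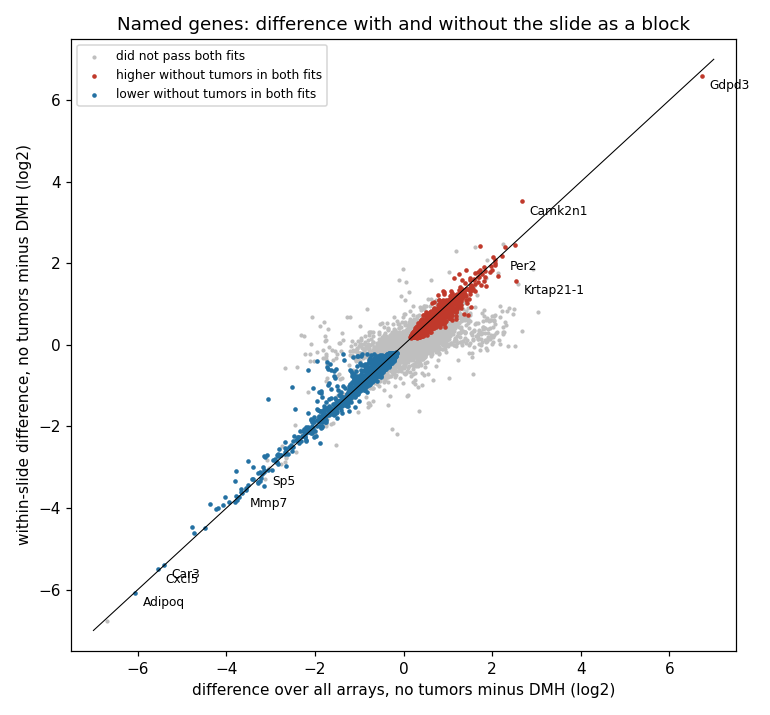
Difference of each of 14186 named genes over all arrays (horizontal axis, log2) against its within-slide difference (vertical axis, log2); coloured points passed both fits, grey points did not, and the line marks equal values. Gdpd3 (6.73 and 6.60) and Cxcl5 (-5.54 and -5.49) lie near the line, while Krtap21-1 (2.54 and 1.58) and Camk2n1 (2.66 and 3.52) lie away from it.

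The largest rise among genes with signal in both groups was that of Gdpd3, a member of the glycerophosphodiester phosphodiesterase family, which act on lysophospholipids. Its levels were 3.05, 2.87 and 2.82 without tumors and -3.69, -3.84 and -3.94 in DMH, so that the groups lay far apart with little spread within either. The difference was 6.73 ± 0.58, adjusted p = 0.00018, or 106-fold, and 6.60 within the slide. This SE also takes in the spread among the arrays with tumors. Camk2n1, which inhibits the calmodulin-dependent kinase CaMKII, stood at -0.38, -0.64 and -0.37 without tumors against -3.99, -2.35 and -3.06 in DMH, where replicate 1 was the lowest array. It rose by 2.66 ± 0.36, adjusted p = 0.00133, and within the slide by 3.52. B3gnt7, a glycosyltransferase that extends sugar chains of glycoproteins, was at 3.20, 2.90 and 2.98 against 1.06, 0.89 and 0.98 (difference 2.05 ± 0.09, adjusted p = 1.14e-05). Atp12a, the potassium-importing proton pump of the colonic surface, was at 3.60, 3.36 and 3.48 against 1.54, 1.53 and 1.47 (difference 1.97 ± 0.08, adjusted p = 7.01e-06). Slc4a4, a sodium bicarbonate cotransporter, Rgs5, a regulator of G protein signalling typical of pericytes, and Trappc10, of a vesicle tethering complex, rose by 1.99, 2.07 and 2.51. A different background correction, normexp, shrank these 3 to 0.95, 1.35 and 1.20. The rises also included the clock genes Per2 and Per3, given below, and Inpp4b, a phosphatase of phosphoinositides (2.02), whose call ended under normexp (0.52, adjusted p = 0.0593).

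The largest falls were steeper than the rises, Gdpd3 apart. The arrays read bulk tissue, in which fewer cells of a type and less RNA per cell cannot be told apart. Adipoq, the fat cell hormone adiponectin, had levels of -6.25, -3.92 and -4.88 without tumors, where 2 of 3 arrays were well above background, and 1.05, 0.94 and 1.14 in DMH. It fell by 6.06 ± 0.82 (adjusted p = 0.00135). Car3, a carbonic anhydrase abundant in fat and muscle, was at -4.12, -2.31 and -3.09 against 2.21, 2.15 and 2.37 and fell by 5.42 ± 0.71 (adjusted p = 0.00115). For both genes the arrays without tumors were spread over about 2 log2 units with replicate 1 lowest and replicate 2 highest, while the DMH arrays were close together. Cxcl5, a chemokine that attracts neutrophils, was at -4.58, -4.30 and -4.69 against 0.96, 0.96 and 1.13 and fell by 5.54 ± 0.14 (adjusted p = 2.11e-06). Onecut2, a homeobox transcription factor, fell by 3.71, and Arg1, the arginase of liver and of type 2 immune responses, with 2 of 3 arrays without tumors well above background, fell by 3.66. Dera, a deoxyribose phosphate aldolase, and Adcy8, a calcium-stimulated adenylyl cyclase, differed by -4.36 and -3.94, each with 1 of 3 arrays without tumors well above background. Under normexp the falls were -3.66 for Adipoq, -3.67 for Cxcl5, -2.27 for Onecut2, -1.68 for Arg1, -1.48 for Dera and -1.26 for Adcy8, all of which passed.

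Some genes were dim, that is not well above background, on all 3 arrays without tumors, so only a lower bound can be given. For the bound, each dim array was given its own signal for the gene or the lowest signal well above background there, whichever was higher, and the DMH mean was set against the mean of these. S100a8, a subunit of the neutrophil protein calprotectin, was at least 15.2-fold lower (adjusted p = 9.86e-06), Mrap, the melanocortin receptor accessory protein of fat cells, at least 11.3-fold (adjusted p = 0.00229), and Cyp2e1, a cytochrome P450 that oxidises metabolites of DMH, at least 6.95-fold (adjusted p = 0.000799). Cacna1f, a voltage-gated calcium channel subunit, and Slc7a10, an amino acid transporter of fat cells, had bounds of 6.87-fold (adjusted p = 9.29e-05) and 5.91-fold (adjusted p = 0.00112). Under normexp these 5 genes differed by -1.47, -1.22, -1.09, -0.91 and -0.76, which is less than the bounds. Of the genes dim on every DMH array that passed both fits, Dnah9 had the highest bound, at least 2.28-fold higher without tumors, and its call ended under normexp (0.37, adjusted p = 0.176).

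**Figure D2:**
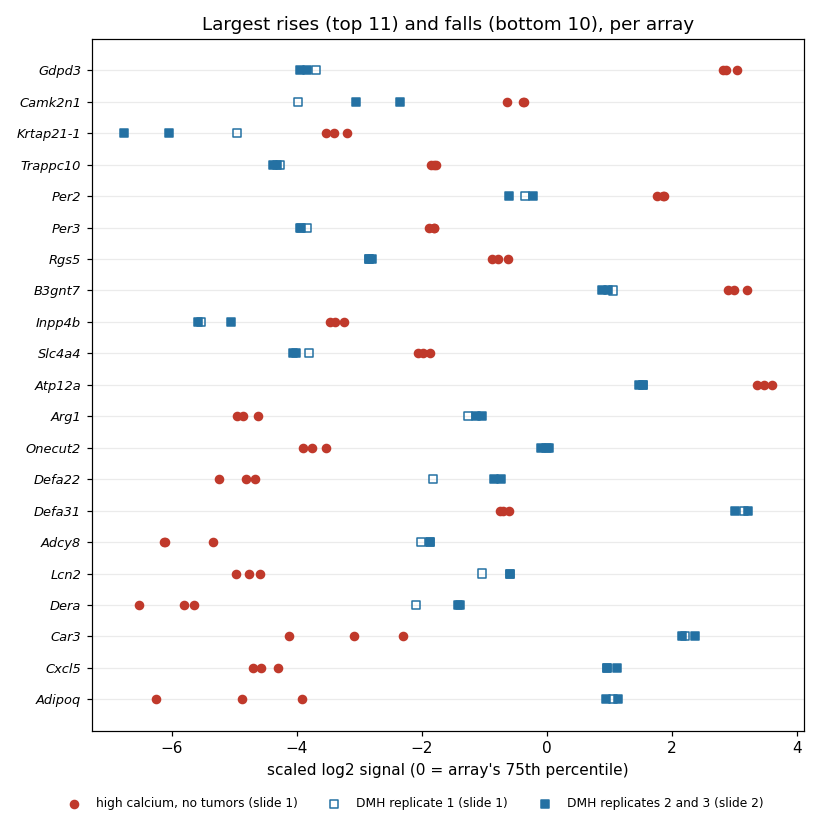
Scaled log2 signal (horizontal axis, 0 is the array's 75th percentile) of 11 of the 12 largest rises and 10 of the 12 largest falls, those named in the text, with 1 point per array; filled circles are the 3 arrays without tumors, squares the 3 DMH arrays, with DMH replicate 1, which shares their slide, drawn open. The 21 genes were chosen among those whose groups do not overlap, which held for 58% of all features. The 3 arrays without tumors are widest apart for Adipoq and Car3.

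Targets and feedback inhibitors of Wnt signalling were lower without tumors. Of 21 measured genes 14 fell and 0 rose, all 14 also within the slide, against 11.1% of all features lower in both fits; the median difference was -0.64 (-0.63 within the slide). Wif1, a secreted antagonist that binds Wnt proteins, was at -0.82, -0.96 and -1.02 without tumors and 2.19, 2.24 and 2.47 in DMH and fell by 3.24 ± 0.12 (adjusted p = 6.72e-06). Notum, an enzyme that inactivates Wnt proteins, was at -2.13, -2.41 and -2.16 against 0.82, 0.85 and 0.80 and fell by 3.06 ± 0.11 (adjusted p = 5.45e-06). In both genes the arrays of each group lay close together and far from the other group. Dkk2, another secreted modulator of the Wnt receptor, was at -3.42, -3.46 and -3.68 against -0.98, -0.85 and -0.78 and fell by 2.65 ± 0.09 (adjusted p = 4.23e-06). The nuclear target Sp5, a transcription factor induced directly by β-catenin, was at -2.08, -2.27 and -2.25 against 0.91, 0.92 and 1.0 and fell by 3.14 ± 0.08 (adjusted p = 1.73e-06). Myc, the growth regulator downstream of Wnt in colon, fell less but with little spread, from 2.85, 2.86 and 2.88 in DMH to 2.29, 2.22 and 2.25 without tumors (-0.61 ± 0.05, adjusted p = 0.000221). Axin2 was well above background on 1 of 9 arrays and was not tested, and Ccnd1 had no probe named here.

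Of genes of crypt stem and progenitor cells 8 of 13 fell and 2 rose, 6 and 1 of them also within the slide (61.5% lower, against 17.2% of all features), with a median of -0.24; 5 fell on the scale of the authors' deposited table. Lgr5, the receptor that marks crypt base stem cells, was at -0.69, -0.81 and -0.77 without tumors and -0.15, -0.09 and -0.04 in DMH, a fall of 0.67 ± 0.06 (adjusted p = 0.00028) with no overlap. Phlda1 and Rnf32 fell as well (-0.85 and -0.69). Msi1, an RNA-binding protein of progenitor cells, was the member that rose in both fits (0.56 ± 0.18, adjusted p = 0.0466), but its call ended whichever single array was left out and under normexp (adjusted p = 0.0913).

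Promoter stretches of 2 Wnt target genes that fell are shown because both hold a TCF/LEF motif, the sequence to which the nuclear partners of β-catenin bind. Tnfrsf19, a receptor found in crypts, was chosen after its values were seen (-1.61 ± 0.05, adjusted p = 4.23e-06). The sequences are from RefSeq, build GRCm38.p6, written 5′ to 3′ on the gene's strand, with the motif ATCAAAG or its reverse complement CTTTGAT in capitals. The Sp5 stretch is chr2:70474799-70474845 on the plus strand, bases -124 to -78 from the gene's start, and that of Tnfrsf19 is chr14:61038163-61038209 on the minus strand, bases -222 to -176.
Sp5: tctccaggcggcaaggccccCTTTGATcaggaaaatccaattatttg
Tnfrsf19: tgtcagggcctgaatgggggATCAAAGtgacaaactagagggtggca
On either strand this motif was found in 2 of 15 list promoters (13.3%), against 3.33% of 11345 tested genes with a promoter sequence and 3.73% of all 32851 promoters of 300 bases. In all, 9 motifs were searched in 5 lists, and a gene counted if any of its promoters held the motif; a match describes the sequence and does not show binding.

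Of 24 measured genes of mitosis 23 fell and 0 rose, 21 also within the slide (87.5%, against 11.1% of all features lower in both fits), with a median of -0.92 (-0.94 within the slide). Mki67, the proliferation antigen Ki-67, was at 2.80, 2.63 and 2.89 without tumors and 3.64, 3.52 and 3.63 in DMH and fell by 0.83 ± 0.09 (adjusted p = 0.00042). Plk1, a kinase that drives entry into mitosis, was at -0.07, -0.19 and 0.13 against 1.01, 1.02 and 1.12 and fell by 1.09 ± 0.10 (adjusted p = 0.00021), and Cenpf, a protein of the kinetochore, was at -0.93, -1.04 and -0.51 against 0.22, 0.32 and 0.38 and fell by 1.14 ± 0.13 (adjusted p = 0.000676). For all 3 genes every array without tumors lay below every DMH array, and replicate 3 was the highest of the arrays without tumors. For Cenpa and Aurkb, DMH replicate 1 lay nearer to the arrays without tumors than the other DMH arrays, and the fall within the slide was smaller. Cenpa, the centromeric histone, was at -3.28, -3.20 and -2.93 against -2.32, -1.23 and -1.23 and fell by 1.55, by 0.82 within the slide and by 0.83 under normexp. Aurkb, the kinase Aurora B, was dim on all arrays without tumors, which puts its fall at 4.94-fold or more (adjusted p = 0.0103), and its call ended under normexp (-0.53, adjusted p = 0.261).

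Of 25 measured genes of DNA replication 4 fell and 2 rose, of which 2 and 0 held within the slide. The share lower, 16%, was near that of all features (17.2%), and the median was -0.04. Rrm2, the ribonucleotide reductase subunit that peaks in S phase, was at 0.02, -0.18 and -0.10 against 0.60, 0.63 and 0.63 and fell by 0.70 ± 0.06 (adjusted p = 0.000169). Among DNA repair genes 9 of 25 fell and 0 rose, all 9 also within the slide (36%, against 11.1% of all features; 5 under normexp, median -0.18). They included Ogg1, which removes oxidised guanine (-1.90, but -1.16 within the slide and -1.23 under normexp) and Fanca of the Fanconi anaemia pathway (-0.94 ± 0.13, adjusted p = 0.00173). Mgmt, which reverses the guanine alkylation that DMH causes, had no probe named here.

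Of targets of p53, 9 of 19 fell and 2 rose, 7 and 2 within the slide (47.4% lower, against 17.2% of all features), and 5 fell on the scale of the authors' deposited table. The polo-like kinases Plk2 and Plk3 went in opposite directions (-1.03 ± 0.11, adjusted p = 0.000395 and 0.92 ± 0.10, adjusted p = 0.000502), and Phlda3, an inhibitor of Akt, fell by 0.80 ± 0.06 (adjusted p = 0.000128). Cdkn1a, the cell cycle inhibitor p21 and best known target, was at 4.0, 4.16 and 4.20 against 4.25, 4.06 and 4.02, with overlapping groups (difference 0.01 ± 0.08, adjusted p = 0.938). Of 23 ribosome biogenesis genes 13 fell and 0 rose (56.5%, against 17.2% of all features lower), 11 also within the slide and 7 on the scale of the deposited table, with a median of -0.27. Pes1, Nop58 and Gar1, of ribosomal RNA maturation, were among them (-0.55, -0.51 and -0.46).

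Of 21 mitosis genes with a promoter sequence, 16 (76.2%) held TTTGAA, the cell cycle homology region through which genes of late cell cycle are held off in resting cells, against 15.7% of tested genes and 17.9% of all promoters. CCAAT, the NF-Y motif, was found in 19 (90.5%, against 42.6% and 37.4%); both were searched on both strands. The promoter of Cdc20, the activator of the anaphase-promoting complex, is shown because the motifs lie close together in it; the gene was chosen for this after its values were seen (-0.87 ± 0.10, adjusted p = 0.000545). The stretch is chr4:118437344-118437416 on the minus strand (RefSeq, GRCm38.p6), bases -73 to -1 from the start, with both motifs in capitals, which do not overlap.
Cdc20: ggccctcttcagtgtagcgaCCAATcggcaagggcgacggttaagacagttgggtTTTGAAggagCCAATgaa

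Of 28 measured genes of absorptive colonocytes 15 rose without tumors and 0 fell, while 13 did not pass. Within the slide 11 of the rises held (39.3%, against 11.4% of all features higher in both fits), and the median was 0.37 (0.26 within the slide). There were 7 rises and 2 falls on the scale of the deposited table, and 1 fall in the fit of only the 6 arrays compared. Aqp4, a water channel, was at 4.42, 4.24 and 4.26 without tumors and 2.58, 2.47 and 2.54 in DMH and rose by 1.78 ± 0.11, adjusted p = 3.8e-05. Slc26a3, the chloride and bicarbonate exchanger of the colonic surface, was at 4.07, 4.03 and 4.02 against 2.73, 2.86 and 2.73 and rose by 1.27 ± 0.11, adjusted p = 0.000156. Both groups were tight and did not overlap in either gene. Car4, a membrane-bound carbonic anhydrase, was at 6.0, 6.0 and 6.07 against 5.06, 4.73 and 4.67 and rose by 1.20 ± 0.11, adjusted p = 0.000225; Saa1, a serum amyloid A that colon epithelium also makes, rose by 1.0 ± 0.10, adjusted p = 0.000319. The water channel Aqp8 rose by 0.67 ± 0.21, adjusted p = 0.0407, but not within the slide (0.34, adjusted p = 0.114), and its call ended in most other settings. Krt20, a keratin of mature cells, and Cdh1, E-cadherin, did not pass (0.28 ± 0.13, adjusted p = 0.12 and -0.22 ± 0.13, adjusted p = 0.22); Cdh1 passed without DMH replicate 1 (-0.37).

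Of 18 intestinal identity factors 7 were higher and 2 lower (38.9% and 11.1%, against 18.5% and 17.2% of all features; 6 and 2 within the slide; 3 higher on the scale of the deposited table). The homeobox genes Hoxb13 and Hoxa13, which mark the hindgut, were higher. Hoxb13 was at 4.65, 4.35 and 4.55 against 3.52, 3.44 and 3.46 (1.04 ± 0.11, adjusted p = 0.000415) and Hoxa13 at 0.61, 0.46 and 0.55 against -0.54, -0.39 and -0.31 (0.95 ± 0.11, adjusted p = 0.000588). The 2 caudal homeobox factors parted. Cdx1 was at 1.93, 1.81 and 1.83 without tumors and 1.20, 0.99 and 1.16 in DMH and rose by 0.74 ± 0.07, adjusted p = 0.000291, while Cdx2 was at 3.34, 3.40 and 3.41 against 4.13, 4.06 and 4.20 and fell by 0.75 ± 0.08 (adjusted p = 0.000445), both without overlap.

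Of 21 goblet and mucus genes 9 rose and 2 fell, 6 and 2 of them within the slide (42.9% higher, against 18.5% of all features), and 3 rose on the scale of the deposited table. The rises included Creb3l1, a transcription factor of secretory cells (0.89, 0.69 and 0.71 against -0.14, -0.33 and -0.26, 1.01 ± 0.09, adjusted p = 0.000255), and Ern2, a stress sensor of mucus-producing cells (0.73 ± 0.07, adjusted p = 0.000293). Atoh1, which directs cells to the secretory lineage, rose by 0.68 ± 0.09, adjusted p = 0.00117, and not on the scale of the deposited table (0.49, adjusted p = 0.0579). Gcnt3, which branches mucin sugars, fell by 0.93 ± 0.16 (adjusted p = 0.00351). Muc2, the main mucin, had no probe named here. Of 20 enteroendocrine genes 5 rose and 4 fell (5 and 3 within the slide), shares of 25% and 20% against 18.5% and 17.2% of all features. Insl5, a hormone of distal colon L cells, was at 5.25, 5.02 and 5.08 against 3.99, 3.79 and 3.88 and rose by 1.23 ± 0.09, adjusted p = 0.000113, and Cck, cholecystokinin, was at -0.75, -0.71 and -0.75 against 0.06, -0.24 and -0.17 and fell by 0.62 ± 0.08 (adjusted p = 0.00135).

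Of 17 antimicrobial genes of the epithelium 4 were higher and 6 lower (2 and 4 within the slide). The share higher in both fits, 11.8%, was near that of all features (11.4%), and the share lower was 23.5% against 11.1%. Lcn2, which withholds iron from bacteria and rises in inflamed epithelium, was at -4.97, -4.58 and -4.76 without tumors and -1.04, -0.59 and -0.59 in DMH and fell by 4.03 ± 0.16 (adjusted p = 7.01e-06), with a difference of -1.93 under normexp. Reg3g, a lectin against Gram-positive bacteria, was at 1.86, 2.69 and 2.03 against 3.53, 3.71 and 3.66 and fell by 1.44 ± 0.20 (adjusted p = 0.00153), with replicate 2 highest among the arrays without tumors. Pglyrp1, a peptidoglycan recognition protein, fell by 0.65 ± 0.06 (adjusted p = 0.00026), whereas the protease inhibitor Wfdc2 was higher (0.76 ± 0.09, adjusted p = 0.000579). Among α-defensins, antimicrobial peptides made by Paneth cells of the small intestine, Defa31 and Defa22 stood among the largest falls. Defa31 was at -0.60, -0.76 and -0.70 without tumors and 3.15, 3.0 and 3.22 in DMH (-3.81 ± 0.09, adjusted p = 1.73e-06), and Defa22 fell by 3.77 ± 0.29 (adjusted p = 0.000111), with a difference of -1.80 under normexp, with 2 of 3 arrays without tumors well above background. The family was then looked at as a whole, after these values were seen. Of 6 α-defensin genes tested 5 fell in both fits and 0 rose, against 11.1% and 11.4% of all features lower and higher. The falls include Defa31 and Defa22, which prompted the look. They also include Defa20, at 1.18, 0.92 and 1.05 against 4.39, 4.15 and 4.33 (-3.24 ± 0.11, adjusted p = 3.64e-06). These genes are near-identical copies, whose probes can read each other's transcripts, so the members are not independent. Lyz1, the Paneth cell lysozyme, was at 3.58, 3.51 and 3.42 against 3.58, 3.99 and 3.92 and did not pass (-0.33 ± 0.12, adjusted p = 0.0785), but did without DMH replicate 1 (-0.46, adjusted p = 0.0115).

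Genes of the BMP pathway, which opposes Wnt signals and favours differentiation towards the crypt top, were higher in 8 of 23 cases and lower in 6 (34.8% and 26.1%, against 18.5% and 17.2% of all features; 6 and 2 within the slide, median -0.04; 3 were lower when replicate 1 or 3 without tumors or DMH replicate 2 or 3 was left out). The ligand Bmp2 was at 0.86, 0.75 and 0.81 without tumors and -0.86, -0.91 and -0.88 in DMH, a rise of 1.69 ± 0.06, adjusted p = 5.45e-06, while the ligand Bmp7 was at -0.43, -0.43 and -0.37 against 0.58, 0.25 and 0.25 and fell by 0.77 ± 0.10 (adjusted p = 0.00127). The secreted antagonist Grem1 rose as well, by 1.57 ± 0.12, adjusted p = 0.000101, with a difference of 0.52 under normexp. Of the target genes Id4 rose and Id3 fell (1.19 ± 0.08, adjusted p = 7.26e-05 and -0.47 ± 0.07, adjusted p = 0.00273). The groups did not overlap for any of these genes, which were picked for large changes, against 58% of all features without overlap.

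The diets differed in calcium, which makes the genes of calcium uptake of special interest. Trpv6, the channel through which epithelial cells take up calcium and a gene induced by vitamin D hormone, was at -2.75, -2.88 and -2.64 without tumors and -0.08, 0 and -0.19 in DMH and fell by 2.67 ± 0.10 (adjusted p = 5.45e-06), with a difference of -1.78 under normexp. S100g, calbindin-D9k, which carries calcium through the cell, was at -0.16, -0.35 and -0.08 against 0.74, 0.88 and 0.84 and fell by 1.02 ± 0.09 (adjusted p = 0.000192). In both genes every array without tumors lay below every DMH array, and the within-slide differences were -2.68 and -0.94. The stanniocalcins, secreted regulators of calcium and phosphate, were also lower, Stc2 by 0.84 ± 0.07 (adjusted p = 0.000123) and Stc1 by 1.52, the latter not under normexp (-0.60, adjusted p = 0.056). Atp2b1, the plasma membrane pump that exports calcium, did not pass (-0.30 ± 0.11, adjusted p = 0.0663) but did without DMH replicate 1 (-0.4) and on the scale of the deposited table (-0.49). Its 2 probes went in opposite directions (-0.30 and 0.48), so no direction can be given for this gene.

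Vdr, the vitamin D receptor, was higher by 0.36 ± 0.06, adjusted p = 0.00393, but not on the scale of the deposited table (0.17, adjusted p = 0.458). Cyp24a1, which breaks the hormone down and is itself its target, was at -4.94, -4.63 and -4.43 against -4.87, -5.19 and -4.98, with overlapping groups and 2 of 3 DMH arrays well above background (0.35 ± 0.46, adjusted p = 0.556). Of genes that serve calcium stores, the pump Atp2a3 (0.64 ± 0.08, adjusted p = 0.000949) and the store-operated channel Orai1 (0.63 ± 0.07, adjusted p = 0.00052) rose, and neither passed on the scale of the deposited table (0.45 and 0.44). Casr, the calcium-sensing receptor, was well above background on 3 of 9 arrays and was not tested. In the whole list 6 of 20 genes were higher and 6 lower, 4 and 4 in both fits (20% each, against 11.4% and 11.1% of all features), and 0 were higher on the scale of the deposited table; the median was 0.06, and -0.05 within the slide. Beside Camk2n1, Camk1d, a calcium/calmodulin-dependent kinase, was the member of the calmodulin kinase list of 18 to rise in both fits (1.28 ± 0.14, adjusted p = 0.000438, 0.65 under normexp), and 0 fell in both; the share of rises, 11.1%, was near that of all features (11.4%).

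Of the 46 lists, circadian clock genes had the highest median. Of 20 measured 12 rose and 4 fell, 9 and 3 in both fits (45% and 15%, against 11.4% and 11.1% of all features), and the median was 0.76 (0.77 within the slide). The period genes Per2 and Per3, repressors of the clock, rose. Per2 was at 1.87, 1.76 and 1.85 without tumors and -0.35, -0.23 and -0.61 in DMH (2.23 ± 0.10, adjusted p = 9.86e-06) and Per3 at -1.88, -1.81 and -1.80 against -3.83, -3.93 and -3.95 (2.07 ± 0.06, adjusted p = 2.6e-06). With the mean of its 2 probes Per2 differed by 1.44, and under normexp Per3 by 1.11. Usp2, a deubiquitinase under clock control, was at 1.66, 1.74 and 1.64 against 0.02, -0.15 and -0.37 and rose by 1.84 ± 0.17, adjusted p = 0.00026. The activator Arntl (BMAL1) went the other way, from 0.43, 0.26 and 0.38 in DMH to -0.17, -0.30 and -0.31 without tumors (-0.62 ± 0.07, adjusted p = 0.000502), together with its partner Npas2 (-0.86 ± 0.08, adjusted p = 0.000288, -0.51 under normexp) and Nfil3, a repressor of clock output (-0.89 ± 0.16, adjusted p = 0.00482). The labels do not give the hour at which tissue was taken, and its part in these results was not tested.

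The promoter of Per3 is shown because it was the single one of 17 list promoters with the D-box TTATGTAA, the motif of the clock output factors Dbp, Tef and Hlf and of Nfil3, and held 2 copies of it; 0.802% of tested genes and 0.938% of all promoters had it on either strand. The stretch is chr4:151044796-151044890 on the minus strand (RefSeq, GRCm38.p6), bases -225 to -131 from the start, with the D-boxes in capitals.
Per3: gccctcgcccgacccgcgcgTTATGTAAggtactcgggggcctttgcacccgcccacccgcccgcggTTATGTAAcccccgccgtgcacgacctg
The E-box CACGTG, the motif of Arntl and its partners, was found in 5 of the 17 (29.4%), against 10.9% of tested genes and 7.15% of all promoters.

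Of 23 measured genes of cholesterol synthesis 14 rose, by small amounts, and 1 fell, 11 and 0 in both fits (47.8% higher, against 11.4% of all features), with a median of 0.26 (0.23 within the slide), but 9 rose under normexp and 1 on the scale of the deposited table. Insig1, the feedback brake on the sterol sensor SREBP, and Sqle, squalene epoxidase, rose by 0.62 ± 0.06, adjusted p = 0.000304 and 0.54 ± 0.04, adjusted p = 0.000142, and neither passed on the scale of the deposited table (0.43, adjusted p = 0.0965 and 0.35, adjusted p = 0.145). The promoters of all 15 list genes in the table held CCAAT, against 42.6% of tested genes, and the sterol element TCACCCCAC was found in 1 of them, that of Hmgcs1.

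Of 19 genes of fatty acid synthesis 5 were higher and 6 lower (26.3% and 31.6%, against 18.5% and 17.2% of all features; 3 and 5 in both fits; 8 higher without DMH replicate 1). Acly, which supplies acetyl-CoA in the cytosol, and the desaturase Fads2 rose (0.73 ± 0.07, adjusted p = 0.000243 and 0.77 ± 0.07, adjusted p = 0.000304). Scd1, the other main desaturase, was at 2.64, 2.67 and 2.52 against 3.86, 3.80 and 3.89 and fell by 1.24 ± 0.12 (adjusted p = 0.00035), and Me1, malic enzyme, was at 0.16, 1.1 and 0.46 against 1.99, 1.95 and 1.57 and fell by 1.26 ± 0.26 (adjusted p = 0.0082). Abcg5, of the exporter that returns plant sterols to the gut lumen, rose by 1.39 ± 0.16, adjusted p = 0.000718, and Abca1, which loads cholesterol onto HDL, fell by 0.59 ± 0.09 (adjusted p = 0.00215). Of fatty acid oxidation and ketogenesis genes 5 of 28 fell and 2 rose, 5 and 1 in both fits, and the share lower (17.9%) was near that of all features, 17.2% (8 fell without no-tumor replicate 2). The fatty acid transporter Cd36 was at -2.37, -1.61 and -2.51 against -0.56, -0.55 and -0.45 and fell by 1.64 ± 0.23 (adjusted p = 0.00145). In Me1 and Cd36, replicate 2 was the highest of the 3 arrays without tumors, as it was in the fat cell genes Adipoq and Car3. The summed signal of fat cell genes was lower on the same arrays (21.1 to 30.2 against 67.9 to 73.3, in multiples of the array's 75th percentile), and their part in the falls of Scd1, Me1 and Cd36 was not tested. Ppargc1a, a coactivator of mitochondrial and oxidative genes, rose with little spread, from 0.04, 0.04 and -0.07 to 1.24, 1.32 and 1.28 (1.28 ± 0.06, adjusted p = 1.31e-05).

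Of 23 phase 1 genes, whose enzymes oxidise foreign compounds, 6 rose and 5 fell, 5 and 5 in both fits. The shares, 26.1% and 21.7%, stood against 18.5% and 17.2% of all features. Beside Cyp2e1, given above, the falls included Aldh1a3, which makes retinoic acid and had signal on all 6 arrays. It was at -0.09, -0.26 and -0.05 without tumors and 2.59, 2.79 and 2.74 in DMH and fell by 2.84 ± 0.10 (adjusted p = 5.29e-06). Cyp3a13, Cyp2f2 and the alcohol dehydrogenase Adh1 rose by 1.08 ± 0.14, adjusted p = 0.00105, 0.97 ± 0.08, adjusted p = 0.000157 and 1.01 ± 0.08, adjusted p = 0.000138. Of 28 conjugating and antioxidant enzymes 13 rose (46.4%, against 18.5% of all features), all also within the slide, and 7 fell (25%, against 17.2%), of which 5 held there; 2 rose and 3 fell on the scale of the deposited table, and without no-tumor replicate 1 or DMH replicate 3 the falls were 3 and 4. The glutathione transferases Gsta1 and Gstt1 were at 2.43, 2.42 and 2.57 against 1.59, 1.48 and 1.27 (1.03 ± 0.10, adjusted p = 0.000284) and at -0.41, -0.37 and -0.48 against -1.19, -1.56 and -1.54 (1.01 ± 0.10, adjusted p = 0.00035). The falls included the heme oxygenase Hmox1 (-0.87 ± 0.11, adjusted p = 0.00107), the quinone reductase Nqo1 (-0.74 ± 0.12, adjusted p = 0.00299) and the glutathione peroxidase Gpx2 (-0.57 ± 0.10, adjusted p = 0.00417).

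Inflammatory genes were lower without tumors. Of 23 genes of neutrophils and acute inflammation 18 fell and 1 rose, 16 and 1 in both fits (69.6% lower, against 11.1% of all features), with a median of -1.0 (-0.95 within the slide). The list's summed signal, in multiples of the array's 75th percentile, was 18.7 to 19.9 without tumors and 22.7 to 26.1 in DMH. Saa3 was the member that rose (0.59 ± 0.10, adjusted p = 0.00443), though not on the scale of the deposited table (0.40, adjusted p = 0.112). Beside Cxcl5, Lcn2 and S100a8, given above, Cxcl3, another neutrophil chemokine, was dim on all arrays without tumors and was lower by at least 3.83-fold (adjusted p = 8.4e-05), a call that ended under normexp (-0.68, adjusted p = 0.0898). S100a9 and Il33, chosen after their values were seen, had signal on all 6 arrays. S100a9, the partner of S100a8, was at -2.07, -2.10 and -2.31 against 1.39, 1.38 and 1.45 (-3.56 ± 0.09, adjusted p = 2.02e-06), and Il33, an alarmin of barrier cells, at -1.86, -1.85 and -1.86 against -0.43, -0.42 and -0.27 (-1.48 ± 0.08, adjusted p = 2.14e-05).

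Promoter stretches of the chemokine genes Cxcl1, Cxcl2 and Cxcl3, neighbours on chromosome 5, are shown because each holds the NF-κB motif GGAATTTCC (capitals). They are from RefSeq, build GRCm38.p6, on the plus strand, at chr5:90891155-90891203, chr5:90903783-90903831 and chr5:90786009-90786057, with first bases at -90, -116 and -92 from the start.
Cxcl1: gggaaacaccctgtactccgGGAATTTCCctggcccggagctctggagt
Cxcl2: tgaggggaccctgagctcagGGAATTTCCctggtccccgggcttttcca
Cxcl3: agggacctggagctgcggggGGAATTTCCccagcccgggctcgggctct
On either strand the motif was found in 5 of 19 list promoters (26.3%), against 0.485% of tested genes and 0.317% of all promoters, while the NF-κB motif of the immunoglobulin κ enhancer was found in 0 of 19. Cxcl1 and Cxcl2, named here for their sequence after their values were seen, were lower as well. Cxcl1 fell by 1.94, and not within the slide (adjusted p = 0.0861) or under normexp (-0.59), and Cxcl2, without signal well above background on the arrays without tumors, was at least 2.91-fold lower (adjusted p = 3.07e-05), a call that ended under normexp (-0.43, adjusted p = 0.224).

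In the prostaglandin pathway 3 of 18 genes rose and 5 fell, 2 and 4 in both fits. The share higher, 16.7%, was near that of all features (18.5%), and the share lower was 27.8% against 17.2%. Ptgs2, the inducible cyclooxygenase COX-2 that is raised in most colorectal tumors, was at -2.79, -3.05 and -2.93 without tumors and -1.77, -1.41 and -1.32 in DMH and fell by 1.42 ± 0.14 (adjusted p = 0.000341), with a difference of -0.78 under normexp. Ptges, which converts its product to prostaglandin E2, and Abcc4, which exports it from cells, fell by 0.61 ± 0.06 (adjusted p = 0.000369) and 0.73 ± 0.07 (adjusted p = 0.000218). Slco2a1, which takes prostaglandins back into cells for breakdown, rose by 0.64 ± 0.14, adjusted p = 0.00949. None of these 4 genes, picked for large changes, had overlapping groups, against 58% of all features without overlap.

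Matrix metalloproteinases, which degrade extracellular matrix, were lower. In the list with their inhibitors 12 of 18 genes fell and 4 rose, 11 and 2 in both fits (61.1% and 11.1%, against 11.1% and 11.4% of all features lower and higher), with a median of -0.58 (the rises were 2 without no-tumor replicate 1 or DMH replicate 2 or 3). Mmp7, matrilysin, an enzyme of epithelial tumor cells and a Wnt target, was at -0.45, -0.52 and -0.46 without tumors and 3.16, 3.12 and 3.22 in DMH and fell by 3.64 ± 0.06 (adjusted p = 5.17e-07), the smallest adjusted p of any gene named here. Mmp10, a stromelysin, was at -0.52, -0.81 and -0.65 against 2.70, 2.56 and 2.64 and fell by 3.29 ± 0.08 (adjusted p = 1.73e-06), and Mmp13, a collagenase, was at -2.78, -3.14 and -3.02 against -0.19, -0.14 and 0.08 and fell by 2.90 ± 0.17 (adjusted p = 4.02e-05). Mmp9, the gelatinase of neutrophils and macrophages, fell by 2.79 ± 0.10 (adjusted p = 4.41e-06), with a difference of -1.60 under normexp. The inhibitor Timp3 rose by 0.78 ± 0.10, adjusted p = 0.00123.

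Markers of immune cells did not move as a block. Of 13 mast cell genes 8 fell and 0 rose, 7 also within the slide (53.8%, against 11.1% of all features), with a median of -0.65 and a summed signal of 16.4 to 18.3 without tumors against 20.5 to 22.2 in DMH. The mucosal protease Mcpt1 was at 0.58, 0.40 and 0.38 against 1.92, 1.97 and 2.17 and fell by 1.56 ± 0.09 (adjusted p = 3.8e-05), and the defining marker Cpa3 fell by 1.61 ± 0.11 (adjusted p = 7.86e-05), with a difference of -0.90 under normexp. Of eosinophil and type 2 genes 6 of 13 fell and 0 rose (46.2% lower, against 17.2% of all features; 5 in both fits, 3 under normexp), with Ccl24, a chemokine for eosinophils, at -2.0, -1.98 and -2.04 against -0.51, -0.54 and -0.44 (-1.51 ± 0.07, adjusted p = 1.05e-05). Of 19 macrophage genes 7 fell and 1 rose (Cx3cr1, 0.55, a call that ended when any array other than DMH replicate 1 was left out), the same counts holding within the slide (36.8% lower, against 11.1% of all features), and 4 fell under normexp. The defining marker Csf1r did not pass (-0.17 ± 0.07, adjusted p = 0.0876).

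Of 22 T and cytotoxic cell genes 12 rose and 3 fell, 9 and 3 in both fits (40.9% and 13.6%, against 11.4% and 11.1% of all features), with a median of 0.36. Their summed signal was 17 to 19.3 without tumors against 11.1 to 12.2 in DMH. The sum is weighted towards bright genes, and Ccl5, given below, was the brightest member, so the sum cannot stand for the list. The count of rises was 5 under normexp, 7 after quantile normalization and 1 on the scale of the deposited table. Ccl5, a chemokine made by T cells and also by other cells, was at 3.08, 2.96 and 2.86 against 1.81, 1.74 and 1.60 and rose by 1.25 ± 0.09, adjusted p = 7.02e-05, while the defining marker Cd3e did not pass (0.49 ± 0.31, adjusted p = 0.249), except in the fit of only the 6 arrays compared (adjusted p = 0.021). The granzyme Gzmb of cytotoxic granules was at -3.99, -3.53 and -3.29 against -1.90, -1.81 and -1.89 and fell by 1.74 ± 0.16 (adjusted p = 0.00024), with a difference of -0.77 under normexp. Of 20 B and plasma cell genes 1 rose (Xbp1, 0.31, not under normexp or on the scale of the deposited table) and 5 fell. These shares, 5% and 25%, stood against 18.5% and 17.2% of all features. In both fits 1 rose and 0 fell, below the shares of all features (11.4% and 11.1%).

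Genes of tissues that lie outside the mucosal epithelium moved too, and these values stand beside the results above; their part in those results was not tested. Of 17 fat cell genes 14 fell and 1 rose (Acvr1c, 0.85, not under normexp or with the mean of its probes), 12 and 1 in both fits (70.6% lower, against 11.1% of all features; 9 fell on the scale of the deposited table), with a median of -1.80 (-1.81 within the slide). The summed signal of the list was 21.1 to 30.2 without tumors, 67.9 to 73.3 in DMH and 35.2 to 46.7 with tumors. Adipoq was well above background on 2 of 3 arrays without tumors and Mrap on 0. Of 19 genes of squamous epithelium, such as lines the anal canal, 11 fell and 1 rose (Krt16, 0.73, a call that ended when any array other than DMH replicate 1 was left out), the same counts holding within the slide (57.9% lower, against 11.1% of all features; 6 fell on the scale of the deposited table). Krt14, a basal cell keratin, was at -0.48, -0.63 and -0.35 against 2.11, 1.98 and 1.96 and fell by 2.51 ± 0.08 (adjusted p = 3.64e-06), but the defining marker Krt5 did not pass (0.25 ± 0.27, adjusted p = 0.489), and the summed signals were 65.4 to 72.5 against 76.7 to 82. Among mesothelial genes 7 of 13 fell and 2 rose, 4 and 1 in both fits (30.8% lower, against 11.1% of all features), and 1 fell under normexp and 4 without no-tumor replicate 3 or without DMH replicate 3. Msln, mesothelin, is a protein of the mesothelial cells that cover the gut's outer surface and is also made by tumor epithelium. It was at -0.80, -0.62 and -0.75 against 0.81, 1.09 and 0.83 and fell by 1.63 ± 0.11 (adjusted p = 5.2e-05).

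Smooth muscle genes rose in 12 of 19 cases, but in 4 within the slide (21.1%, against 11.4% of all features) and 5 on the scale of the deposited table. DMH replicate 1 lay nearest the arrays without tumors in this list, with a summed signal of 549, against 585 to 728 without tumors and 335 in the lowest DMH array. Myh11, the smooth muscle myosin, was at 3.96, 4.29 and 3.83 against 3.60, 2.97 and 2.75 (0.92 ± 0.23, adjusted p = 0.0174, and 0.42 within the slide with adjusted p = 0.189), a call that also ended without no-tumor replicate 2 or without DMH replicate 2 or 3. Of neuron and glia genes 3 of 19 rose, 2 in both fits, the share of rises, 15.8%, being near that of all features (18.5%); the neuropeptide Vip rose by 0.65 ± 0.09, adjusted p = 0.00221, and Elavl4 did not pass (0.40 ± 0.23, adjusted p = 0.219). Of 24 fibroblast and matrix genes 8 fell and 2 rose, 7 and 0 in both fits (29.2% lower, against 11.1% of all features), and 5 fell in several settings, those without DMH replicate 1 or 3 or no-tumor replicate 1 or 3 included. Col1a1, a fibrillar collagen, was at 3.47, 3.40 and 3.40 against 4.20, 4.04 and 4.14 and fell by 0.70 ± 0.07 (adjusted p = 0.000284), and Pdgfra, a receptor of mesenchymal cells, by 0.67 ± 0.07 (adjusted p = 0.000512). The endothelial marker Pecam1 did not pass (0.18 ± 0.09, adjusted p = 0.149), though it did without no-tumor replicate 3 (0.26).

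**Figure D3:**
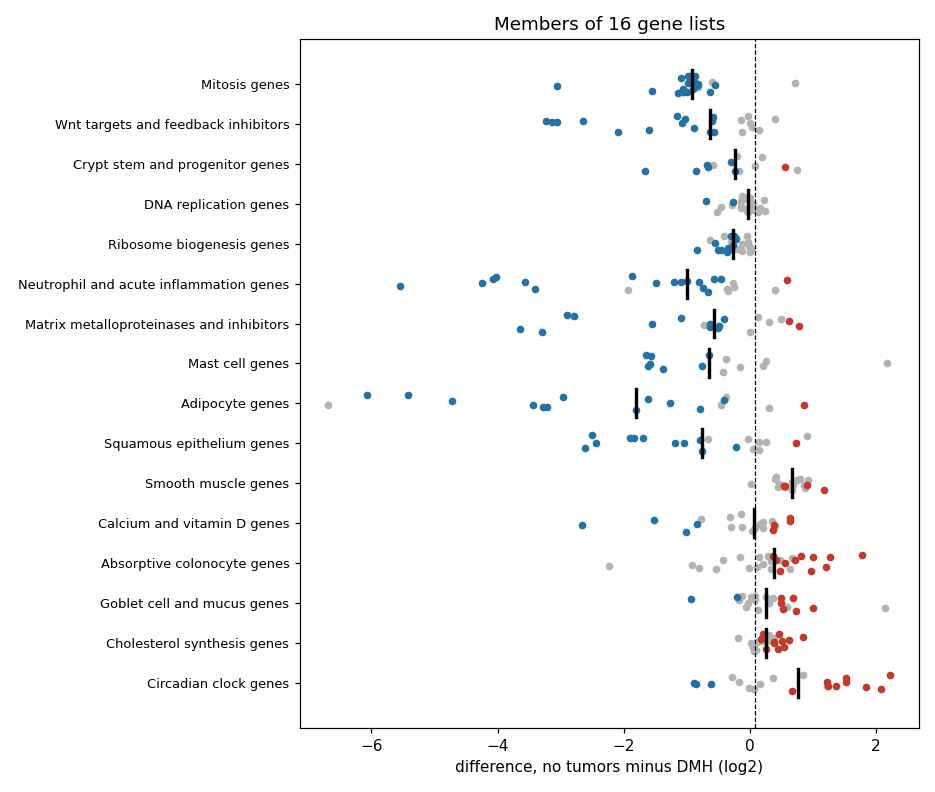
Difference between the group without tumors and DMH (horizontal axis, log2) of every measured member of 16 gene lists (rows), 1 point per gene; coloured points passed both fits, grey points did not, black bars mark list medians and the dashed line the median of all features, 0.07. Genes that are dim in a group stand at their fitted values; mitosis, Wnt, inflammation, metalloproteinase and fat cell genes lie mostly to the left, and clock, absorptive and cholesterol genes mostly to the right.

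High calcium mice that carried tumors were compared with the same DMH arrays, so both comparisons share their controls, and the difference between the high calcium groups was tested directly. It passed for 10047 of 21083 features (47.7%), for 6700 with the slide as a block (31.8%) and for 5289 in both fits (25.1%), 2133 higher and 3156 lower without tumors (10.1% and 15%). No slide held both groups, which the block links through DMH arrays. Replicate 3 with tumors lay alone on slide 3, so the fit with the block rests on replicates 1 and 2 of that group. It differed from them by at least 2-fold at 2871 and 2902 features, against 200 between replicates 1 and 2. Wnt target genes were among them: 14 of 21 were lower without tumors than with tumors in both fits, and 0 higher. Sp5 was 0.47, 0.38 and 0.25 with tumors, below DMH by 0.57, a difference between the high calcium groups of -2.57 (adjusted p = 3.34e-06). Notum was 0.49, 0.41 and 0.12 with tumors (difference -2.57, adjusted p = 1.32e-05). Mitosis genes were lower without tumors in 13 of 24 cases and higher in 0, absorptive genes higher in 10 of 28 and lower in 2, and cholesterol synthesis genes higher in 13 of 23 and lower in 0.

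For several genes the high calcium groups lay on opposite sides of DMH. Aqp4 was 1.20, 1.45 and 1.05 with tumors, below every DMH array, so that it differed by 3.07 between the high calcium groups (adjusted p = 5.59e-06). Timp1, an inhibitor of metalloproteinases made by stromal cells and chosen after its values were seen, fell by 1.09 ± 0.06 (adjusted p = 2.3e-05) without tumors but was higher than DMH with tumors (1.17, adjusted p = 4.33e-05). Lgr5 was 0.58, 0.47 and 0.40 with tumors, above DMH by 0.58. Among clock genes, 3 of 20 were higher without tumors than with tumors in both fits and 2 lower, against 10.1% and 15% of all features. Per2 was 1.53, 1.47 and 1.53 with tumors, above DMH by 1.91. The difference of Per2 between the high calcium groups was 0.32 (adjusted p = 0.0282), and with the slide as a block it did not pass (adjusted p = 0.351). Fat cell genes had a median of -1.58 with tumors against DMH. In both fits 3 of 17 were lower without tumors than with them, near the share of all features (15%).

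**Figure D4:**
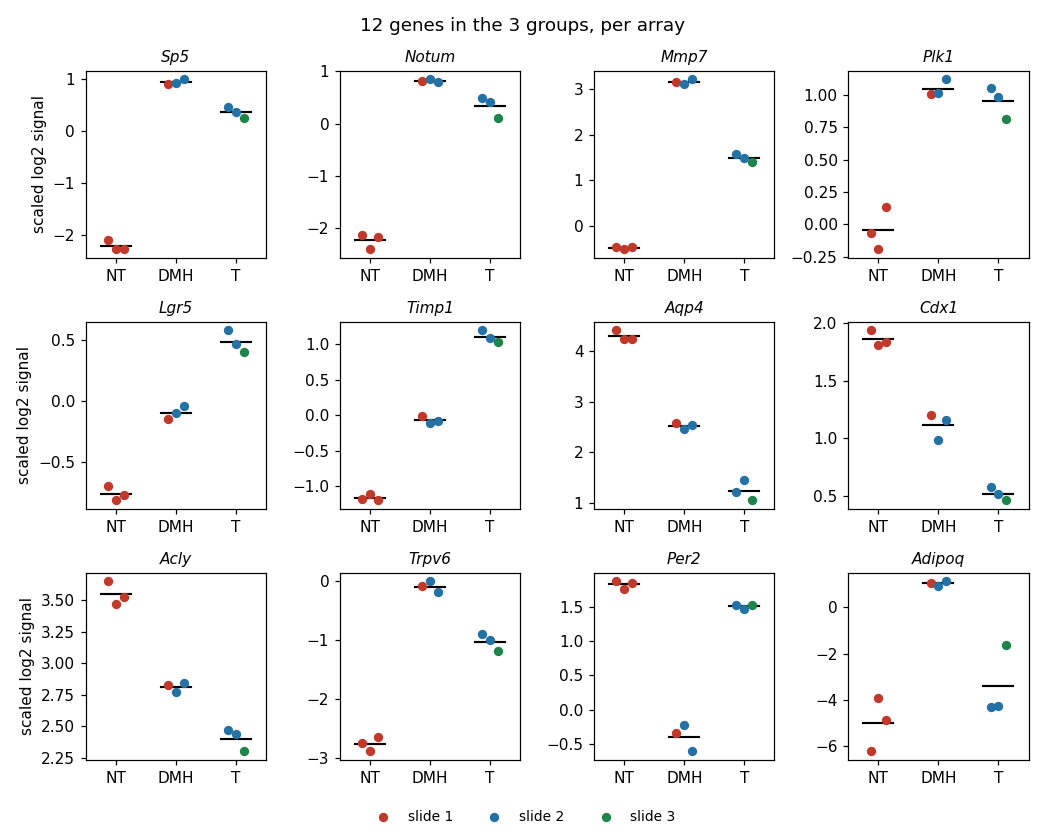
Scaled log2 signal (vertical axis, 0 is the array's 75th percentile) of 12 genes in the 3 groups, 1 point per array with a bar at the group mean; NT is high calcium without tumors, T high calcium with tumors, and slides are marked by colour. Sp5, Notum and Mmp7 are lowest without tumors, Aqp4 and Timp1 have the groups with and without tumors on opposite sides of DMH, and Per2 and Adipoq have both high calcium groups on the same side.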

How the data were processed

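Total RNA was measured on single-colour Agilent arrays of 41174 probes; the intensity columns were deposited as Agilent Feature Extraction 10.5.1.1 output, per the file headers, which records the processed signal of each spot with its background already removed. The authors' deposited table of log2 values equalled the log2 of these signals minus a constant per array (23726 probes, column medians 2.36 to 2.80); no label or header explains the constant. Samples were grouped by title.

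Spots of a probe were averaged without outlier spots (383 probes), the array's 75th percentile of log2 signal over non-control probes was subtracted, and probes were kept if all 3 arrays of any group showed them well above background (27192). The brightest kept probe stood for each symbol, which left 21083 features, 14186 with a symbol; the deposited files and tables gave 25089 probes a symbol and 16085 none. All 9 arrays were fitted with limma 3.58.1 (R 4.3.3, lmFit and eBayes), without and with the slide as a block, with Benjamini-Hochberg adjustment at 0.05. Code was tested on simulated data. Replicate numbers were not used to pair the arrays in the main fit (closing section).

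Genes were named by a rule: the 12 largest rises and falls past both fits without overlap, bounds for dim genes, up to 4 members per direction and list, and a panel; some genes the rule names are not reported here. The members and the 46 lists were chosen with earlier results of these data known. Alternatives were the slide or replicate number as a block, normexp (offset 50, on median spot signals), quantile normalization, the deposited table, other filters on dim probes, the mean of a gene's probes, only the 6 arrays, and each array left out. The number of arrays limits the precision.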

Additional observations from a re-analysis of the deposited data

Results flagged for a closer look

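For 18 of 166 named genes the high calcium groups lay on opposite sides of DMH, with each side and the difference between the high calcium groups past the limma threshold (adjusted p under 0.05) without and with the slide as a block. Most named genes were chosen for passing both fits against DMH, so the count depends on that choice. The share over all features was not counted. Each value below is the mean without tumors minus the mean with tumors, in log2 units, and both groups are compared with the same DMH arrays. No explanation of these differences was tested.

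Higher without tumors were Mptx1 (3.58), a pentraxin of mucosal cells chosen after its values were seen, and the absorptive genes Aqp4 (3.07) and Car4 (1.75). Mptx1 stood at 7.71, 7.49 and 7.57 without tumors, 6.64, 6.48 and 6.55 in DMH and 4.08, 4.09 and 3.88 with tumors, so that the 3 groups were fully separate. The factors of cell fate Atoh1 (1.38), Cdx1 (1.34) and Creb3l1 (1.30) shared this order, as did Xbp1 (0.806), a factor of the unfolded protein response in secretory and plasma cells. So did the calcium genes Camk1d (1.84), Orai1 (1.08) and Atp2a3 (0.957) and the lipid genes Acly (1.15) and Sqle (0.843).

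Lower without tumors and higher with them were Timp1 (-2.26), Msln (-2.0), Stc2 (-1.59), Col1a1 (-1.50), Lgr5 (-1.24) and Slc16a3 (-1.24). Stc2 stood at -1.91, -1.85 and -1.87 without tumors, -1.08, -0.99 and -1.04 in DMH and -0.20, -0.23 and -0.42 with tumors. Summed signals of the fibroblast and matrix list, which holds Col1a1, were 156 to 176 without tumors, 178 to 194 in DMH and 271 to 284 with tumors; their part in these results was not tested.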

How the results depend on the processing

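The count of changed features was 7507, and 3880 under normexp and 3339 on the deposited table's scale. That table holds 18458 features, and the filter for signal on all 9 arrays, which left 18450, gave 7301. The cause of the lower counts was not tested. Leaving out each array in turn gave 5235 to 8761. Changes of at least 2-fold numbered 1149, and 335 under normexp, with 960 to 1607 when an array was left out; the highest counts, 8761 and 1607, came without DMH replicate 1, the array nearest the group without tumors. The other settings kept all counts of features within 1.5 times, including the difference between the high calcium groups (10047, 6700 with the slide as a block). Same-numbered arrays without tumors and in DMH deviated with correlations of 0.0264, -0.0901 and 0.197, so the numbers did not pair them. With the replicate block 5965 features passed, 1055 of at least 2-fold, and 8896 for the high calcium groups.

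Of 166 named genes none turned past its threshold in the opposite direction. Calls were lost for 5 with the slide as a block, 13 under normexp and 12 of 145 on the deposited table's scale, 3 of 166 with the replicate block, and 1 to 5 when single arrays were left out. Most of these genes were named because they passed with the slide as a block, so few losses there were set by the choice. Of the calls over all features 63.2% passed both fits. Counts of Wnt, mitosis, inflammation, clock and mast cell genes in their main direction stayed within 1.5 times in all settings, while list counts under 5 often did not. Setting dim genes at their bounds moved no list median, but at most 3 members of any list stood at a bound. The medians could therefore hardly move. Dim genes are limited by signal over background, and the number of arrays limits all values.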

Other observations

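Immediate early genes, which cells switch on within minutes of a growth or stress signal, were lower in 10 of 23 cases (43.5%, against 17.2% of all features) and higher in 0, and 7 of the falls held within the slide; 5 passed under normexp and 5 on the scale of the deposited table. Egr1, a transcription factor induced by growth factors, was at 0.11, -0.11 and 0.07 without tumors and 1.0, 1.15 and 1.14 in DMH and fell by 1.07 ± 0.08 (adjusted p = 0.000108). Jun, a subunit of the AP-1 factor, was at 0.61, 0.90 and 0.68 against 1.63, 1.82 and 1.76 and fell by 1.01 ± 0.09 (adjusted p = 0.000184). Ier3 fell by 1.80 ± 0.14 (adjusted p = 0.000107). In Egr1, Jun and Ier3 the groups did not overlap, which held for 58% of all features. In the EGF list the ligand Hbegf fell by 0.61 ± 0.08 (adjusted p = 0.0012), with 2 of 15 genes higher and 3 lower (1 and 3 in both fits; 13.3% and 20%, against 18.5% and 17.2% of all features).

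Glycolysis and hypoxia genes were higher in 12 of 25 cases and lower in 3, 7 and 3 in both fits (28% and 12%, against 11.4% and 11.1% of all features), and 0 were higher on the scale of the deposited table. The falls included the lactate exporter Slc16a3 (-0.69 ± 0.11, adjusted p = 0.00301) and the hexokinase Hk2 (-0.53 ± 0.05, adjusted p = 0.000289). Oxidative phosphorylation genes were higher in 9 of 26 cases, but in 1 in both fits (3.85%, against 11.4% of all features) and in 1 to 3 when any array other than DMH replicate 1 was left out, and 2 were lower. Interferon genes were higher in 4 of 24 cases and lower in 4 (3 and 3 in both fits; 9 higher without DMH replicate 1), shares of 16.7% each that were near those of all features, 18.5% and 17.2%, with Usp18, a brake on interferon signalling, lower by 0.81. Class II antigen presentation genes were higher in 3 of 10 cases and lower in 0 (2 higher in both fits, 20% against 11.4% of all features). Of claudins and junction genes 2 of 19 were higher and 3 lower, the latter a share of 15.8% against 17.2% of all features (0 and 1 in both fits; 5 lower without DMH replicate 1), and Cldn4 was the one lower in both (-0.87 ± 0.07, adjusted p = 0.000174).

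Endoplasmic reticulum stress genes were higher in 4 of 22 cases and lower in 5 (3 and 1 in both fits), sterol export genes higher in 3 of 13 and lower in 2 (2 and 1), bile acid genes lower in 1 of 12, and endothelial genes higher in 3 of 19 and lower in 2 (1 and 2). In these 4 lists the shares, 0% to 23.1% higher and 8.33% to 22.7% lower, stood against 18.5% and 17.2% of all features. Reg4, a lectin of secretory cells chosen after its values were seen, was at 6.54, 6.40 and 6.44 without tumors and 5.29, 5.28 and 5.46 in DMH, a rise of 1.11 ± 0.09, adjusted p = 0.000129.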
